A study of Rattus norvegicus with 4 samples.

Results

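Sharp, strong peaks of trimethylation of histone H3 at lysine 4 (H3K4me3) in rat sciatic nerve were selected on called width and on normalized tag count. Each is a region with exactly 1 peak in each of 2 peak lists, called less than 1000 bp wide in both and with a mean of at least 200 normalized tags. There were 592 of them among 39013 merged regions of either list, 27962 regions with a peak in both lists and 26181 with exactly 1 peak in each. Chromatin immunoprecipitation and sequencing was done on nerve of adult male Sprague Dawley rats, whose passage field in the labels reads P42. The injured group was the distal stump of a transected nerve, removed 1 day after surgery. The sham group was the contralateral nerve of cut animals, whose limb had received a skin incision alone, and it was taken at the same time. There were 2 samples a group, which the authors pooled before calling peaks, so each group is 1 list and no value has a replicate spread or a p-value. The labels name no genetic change in either group, and whether the samples of each group came from separate animals is not stated.

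H3K4me3 is laid down by the SET1 and MLL methyltransferase complexes and removed by KDM5 demethylases. It marks the nucleosomes that flank the start sites of active genes, where it is read by factors such as the TAF3 subunit of the general transcription factor TFIID. Most marked promoters carry it as a domain spread over several nucleosomes on either side of a nucleosome-poor start site, and a narrow strong peak is the compact end of that range. Micrococcal nuclease, used here to cut the chromatin, trims DNA between nucleosomes, so that tags come mainly from nucleosome-sized fragments. Peripheral nerve holds Schwann cells, fibroblasts, endothelial cells and macrophages, and in such whole tissue a change in the number of cells of a type and a change in the mark per cell cannot be told apart.

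Depth was 22595649 tags for sham and 21307148 for injured nerve, each scaled by the authors to 10000000. The 592 regions made up 1.65% of sham peaks and 1.79% of injured peaks, and they held 2.64% and 2.66% of the tags in peaks. Positions are printed from the lists, and their assembly is not given in the sources used. Of the 41 sharp strong regions on chromosome 4, 17 started past 184404305, the end of the last chromosome 4 gene in the GRCr8 gene table at hand. That table and the lists therefore use different assemblies, so regions are named by position, gene and exon annotation was not used here, and the tissue label was not checked against marker genes.

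The sharp strong regions carried compact signal at nearly equal density in both nerves. Normalized tags ranged from 171.3 to 17803 in sham nerve with a median of 316, and from 161 to 18772 in injured nerve with a median of 309. Divided by called width, the median density was 419 tags per kb in sham and 424 in injured nerve. Both the width and the tag count chose these regions, so a high density follows from the choice and is given as a description. Of the 592, 101 lay under 300 tags per kb as the mean of the lists, 292 between 300 and 500, 127 between 500 and 700, and 62 between 700 and 1000. Only 9 lay between 1000 and 3025 tags per kb, the limit for an extreme value (upper quartile plus 3 interquartile ranges on the log2 scale), and 1 lay above it. Strong regions of at least 1000 bp in both lists, 9052 in number, had medians of 371 and 385 tags per kb. The order of the members was much the same in both lists, with a Spearman correlation of 0.88 over the 592 densities and also over the 591 below the limit. These points share the libraries and the selection on tags, and the correlation is a description.

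**Figure D1:**
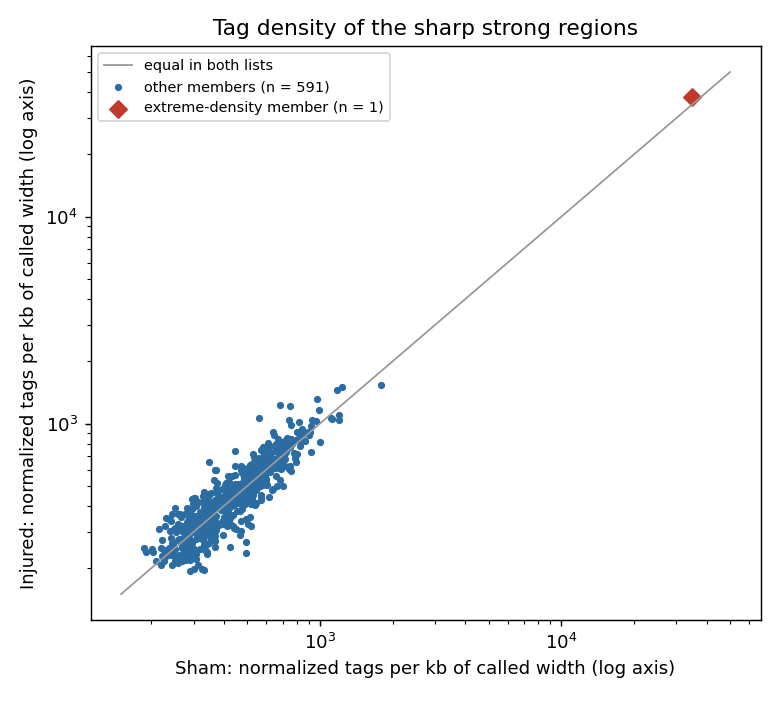
Normalized tags per kb of called width in the sham list (x) and the injured list (y), both on log axes, 1 point per sharp strong region, with the line of equal values. The red diamond is the region above the limit of 3025 tags per kb, and the other 591 regions lie along the line below that limit.

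The region set apart was chr4:142116172-142116700. It held 17803.0 normalized tags in sham nerve and 18772.1 in injured nerve, over called widths of 514 and 497 bp. Its density was 34636 tags per kb in sham and 37771 in injured nerve, so both nerves showed it at about the same level. That was 21.8 times the density of the next densest member and 86.4 times the median of the members. As a tag sum it was 3.23 times the most tagged other region in both lists, of any width. Before scaling it held 40227 tags in sham and 39998 in injured nerve, or 78.3 and 80.5 tags per bp of called width. The median member held 0.947 and 0.903 tags per bp. The file headers give a limit of 1 tag per bp considered by the caller, which allows 2 tags per bp of width if it counts each strand. In both lists 219 of the 592 members (37.0%) exceeded 1 tag per bp and 13 (2.20%) exceeded 2. The deposited tag counts of at least these 13 were thus above the limit. Of the 9991 1-to-1 regions with at least 200 mean tags, 30.4% exceeded 1 and 0.330% exceeded 2. The selection on width and tags favours dense regions. The caller's clonal fold, which rises where tags sit on fewer unique positions than expected, was 0.77 in sham and 0.76 in injured nerve at this region, below the member medians of 0.96 and 0.97. At 78.3 and 80.5 tags per bp many tags must share a position, so the low fold does not show that its tags are less repeated. How the fold behaves at such density was not tested. The findPeaks scores of this region, 152 and 179, were the highest of the members in both lists. Centred on the median of all regions in both lists, its ratio of injured over sham was 1.11-fold (log2 0.15, 95% counting interval 0.13 to 0.17). That interval takes each tag as a separate molecule. With many tags on shared positions here, it may be too narrow. Another region lay 885 bp away and the nearest strong region 3269 bp away. This region alone held 7.68% of the members' tags in sham and 8.10% in injured nerve, and the mean density of the members was 518 and 538 tags per kb with it and 460 and 475 without it. What the region is in the genome was not analysed here.

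The next densest regions stood well below it. The region chr7:15947754-15948094 had 600.1 normalized tags in sham and 513.4 in injured nerve over 336 and 335 bp, which is 1786 and 1533 tags per kb. A second region of chromosome 7, chr7:74892126-74892558, had 535.5 and 562.3 tags over 432 and 372 bp, or 1240 and 1512 tags per kb. The region chr16:31809471-31810428 had 1083.4 tags in sham and 1361.0 in injured nerve, the most of any member after the extreme one. Its width was 916 and 941 bp, its density 1183 and 1446 tags per kb, and its centred ratio 1.32-fold higher in injured nerve (log2 0.40, 95% counting interval 0.32 to 0.48). Among the most tagged members, this was the one that differed most between the nerves.

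The other 8 of the 10 regions with most tags differed less. The region chr4:204559959-204560848 had 1049.3 tags in sham and 965.9 in injured nerve (centred log2 -0.05). The region chr10:95145526-95146489 had 882.5 and 978.1 tags, and chr10:63104202-63105070 had 896.2 and 889.8. At chr7:75447705-75448700 the values were 861.7 and 902.0 tags. These 4 regions were each within 1.2-fold of equal after centring. The region chr14:33957833-33958749 was 1.27-fold higher in injured nerve, with 744.4 tags in sham and 901.1 in injured nerve. The region chr15:63733820-63734733 had 838.2 and 802.1 tags. The regions chr2:200267045-200267831 and chr2:218523313-218524310 had 813.0 and 819.0 tags, and 781.1 and 840.6 tags. Of the 10 most tagged members, 9 had a centred ratio above 1 and none reached 1.5-fold. A centred ratio above 1 was common, in 60.0% of all members and 66.1% of the 9991 1-to-1 regions with at least 200 mean tags. At chr10:63104202-63105070 and chr15:63733820-63734733 the direction turned on the centring, since their uncentred tags were lower in injured nerve.

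Most sharp strong regions were called several times wider than the calling window of 150 bp, and few came close to it. Median widths were 849 bp (sham) and 808.5 bp (injured). Taking the wider of the lists, 395 regions (66.7%) were 800 to under 1000 bp wide, 145 were 600 to under 800 bp, 41 were 400 to under 600 bp and 11 were under 400 bp. The set thus leans toward its own upper limit. At that limit, the widest members reached 999 bp in sham (chr14:60669998-60670997, with 532.8 and 587.1 tags, and chr5:52858635-52859634, with 298.3 and 391.9). The first regions beyond it were 1000 and 1001 bp wide in the wider list, at chr18:28167086-28168097 with 543.9 and 467.9 tags, and at chr10:104029194-104030195 with 315.1 and 230.4. At the limit on tags, members at chr17:45515592-45516542 and chr9:44481434-44482396 averaged exactly 200 and 200.1 tags. The nearest regions outside it, at chrX:136369048-136370009 and chr7:15357180-15358077, averaged 199.15 and 197.9.

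**Figure D2:**
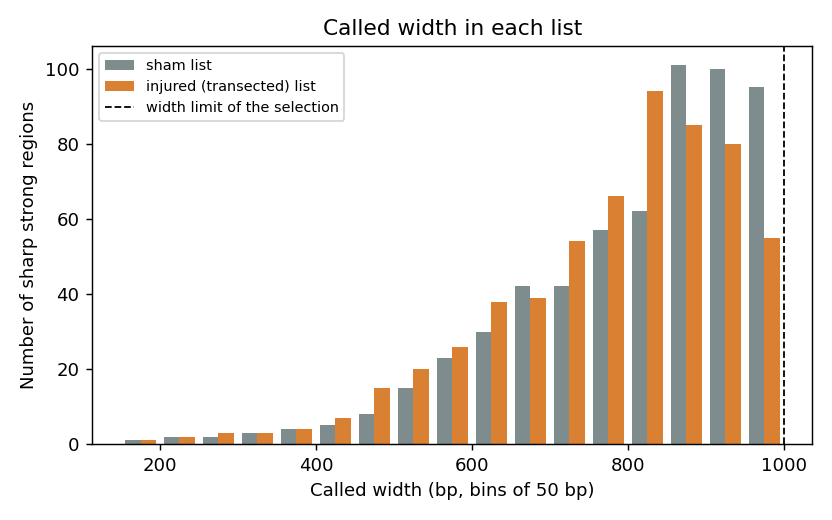
Number of sharp strong regions (y) by called width in bins of 50 bp (x), in the sham list (grey) and the injured list (orange), with the width limit of 1000 bp dashed. Most regions lie above 800 bp in sham, and the injured list has fewer than the sham list in the 3 widest bins.

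The narrowest member was chr13:98346994-98347190. It was called 187 bp wide in both lists and held 185.9 tags in sham and 217.3 in injured nerve, or 994 and 1162 tags per kb. The next narrowest were chr7:10274166-10274434, with 228.8 and 216.8 tags over 229 and 267 bp, and chr3:28442415-28442693, with 217.3 and 233.3 tags over 241 and 266 bp. All 3 were called shorter than 2 calling windows in both lists. Their clonal folds were 1.53 and 1.51, 1.49 and 1.92, and 1.68 and 1.65 in sham and injured nerve, where the caller removed regions above 2. The part of clonal tags in these values was not tested. Of the 11 members under 400 bp, 6 had a clonal fold over 1.5 in either list, against 33 of the 581 wider ones.

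Median density was lower in the wider classes of members. The median density was 810 tags per kb in sham and 877 in injured nerve in the 11 regions under 400 bp, and 517 and 507 in the 41 of 400 to under 600 bp. It was 417 in both lists in the 145 of 600 to under 800 bp, and 400 and 410 in the 395 of 800 to under 1000 bp. Since every member had to average 200 tags, a narrow member had to be dense. Over all 592 regions the Spearman correlation of mean width with mean density was -0.16, a description over points that share both libraries.

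The findPeaks score, the authors' own value for each peak and a column that the selection did not use directly, was higher in these regions than in wider ones of the same lists. Its median was 19.5 in sham and 18 in injured nerve, against 11 in both lists for the 9052 strong regions of at least 1000 bp. A score of at least 40 in both lists was reached by 108 of 592 members (18.2%) and by 139 of the 9052 wider regions (1.54%). With tag sums held alike, at 200 to 400 mean tags, the shares were 77 of 408 sharp regions (18.9%) and 30 of 1713 wide ones (1.75%). Density was not alike in these sets, with medians of 363 and 186 tags per kb. The selection on width and tags favours dense regions, and the part of density in the score was not tested. Within the members, scores were lower in the wider classes. Their medians in sham and injured nerve were 70 and 71 under 400 bp, 56 and 50 from 400 to under 600 bp, 22 in both lists from 600 to under 800 bp, and 16 in both from 800 to under 1000 bp. A high score was not shared by all, since 66 members (11.1%) scored between 8, the caller's threshold, and 10 in both lists. The score of a given region also varied between the lists, with a Spearman correlation of 0.59 where that of tags was 0.90. The region chr10:63104202-63105070 scored 86 in sham and 24 in injured nerve with nearly equal tags. No test of the score was possible with 1 list a group.

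High clonal folds took a like share of the members and of wider strong regions, and a larger share of the members when signal was held alike. It exceeded 1.5 in either list in 39 of 592 members (6.59%, 95% exact interval 4.73 to 8.90) and in 739 of 9052 wider strong regions (8.16%, interval 7.61 to 8.75). It exceeded 1.5 in both lists in 9 members. Among regions with 200 to 400 mean tags it exceeded 1.5 in 4.66% of 408 sharp regions (interval 2.83 to 7.18) and in 1.46% of 1713 wide ones (interval 0.947 to 2.15). At a like tag sum a sharp region packs its tags into less sequence, and the part of that in the clonal fold was not tested. These intervals treat regions as independent and describe the lists alone.

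The signal of the sharp strong regions differed little between injured and sham nerve. Of the 592, 0 were higher and 4 (0.676%) were lower in injured nerve by at least 1.5-fold, as tag sums centred on the median of all regions in both lists. Over all 27962 regions with peaks in both lists, weak ones included, 7.6% were higher by at least 1.5-fold and 13.8% were lower by as much. Over the 9991 regions with 1 peak in each list and at least 200 mean tags, the shares were 0.771% higher and 0.771% lower. The members' share of lower regions is thus close to that of strong regions in general. No member was 2-fold apart, where 9.12% of all regions in both lists and 0.2% of the 9991 strong ones were. Without centring, 0 were higher and 10 lower by 1.5-fold, and as tags per kb 9 were higher and 12 lower, so the count and its split depend on that choice.

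By standard deviation, the ratios of the members were spread slightly more widely than those of strong regions in general. The median centred log2 ratio was 0.06, the quartiles were -0.10 and 0.18, and the range ran from -0.68 to 0.58. After centring, 355 members (60.0%) had a ratio above 1, before taking log2, and 237 had one below 1. Among the 9991 strong regions, 66.1% had a centred ratio above 1. Without it, 288 were higher in injured nerve and 304 lower, so the direction of the whole set turns on the centring. The standard deviation was 0.23, and counting error alone would give 0.08. In pooled lists the spread between animals, libraries and called edges cannot be told apart. Among regions with 200 to 400 mean tags, the standard deviation was 0.24 for 408 sharp regions and 0.30 for 1713 wide ones. In that range 4 sharp regions (0.980%) and 51 wide ones (2.98%) were at least 1.5-fold lower, and 0 and 28 (1.63%) at least 1.5-fold higher. As tags per kb no such difference in spread was seen, with standard deviations of 0.28 in both sets. The requirement of a width under 1000 bp in both lists also leaves out regions whose called width crossed that limit, and the 347 strong regions that crossed it had a standard deviation of 0.24.

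**Figure D3:**
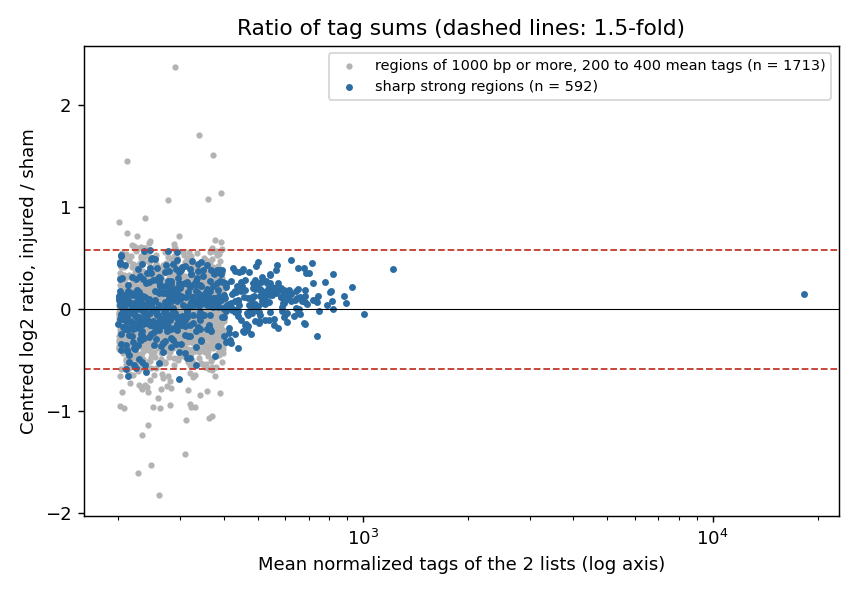
Centred log2 ratio of injured over sham tag sums (y) against the mean normalized tags of the lists on a log axis (x), for the 592 sharp strong regions (blue) and 1713 regions of at least 1000 bp with 200 to 400 mean tags (grey), with 1.5-fold dashed. All blue points but 4 lie between the dashed lines, while 79 grey points lie outside them.

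The lowest ratio belonged to chr10:98413301-98414243. It had 374.4 normalized tags in sham and 222.0 in injured nerve, or 1.61-fold less once centred (log2 -0.68, with a 95% counting interval of -0.85 to -0.52). The call was wider in injured nerve, 939 bp against 760 bp, so fewer tags were spread over more sequence. Its density was 493 tags per kb in sham and 236 in injured nerve (centred log2 -1.08), which made it the one member 2-fold apart by density. The region chr14:2768343-2768959 had 265.5 and 161.0 tags (log2 -0.65, interval -0.85 to -0.46), over 589 and 521 bp. The region chr10:36147665-36148649 had 295.2 and 184.0 tags (log2 -0.61), with like widths of 984 and 927 bp. The region chr1:51811699-51812334 had 257.1 and 162.9 tags (log2 -0.59) and was narrower in injured nerve, 499 bp against 613 bp. These 4 were the members past 1.5-fold, and all averaged under 300 tags.

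Next in order came chr1:224578654-224579271, with 273.5 tags in sham and 174.6 in injured nerve, and chr3:18641622-18642568, with 287.7 and 187.7. Their centred log2 ratios were -0.58 and -0.55. All 6 of the lowest regions were lower as tags per kb too, with centred log2 values from -1.08 to -0.38.

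The highest ratios stopped just short of 1.5-fold. The region chr10:92277873-92278445 had 203.6 normalized tags in sham and 290.0 in injured nerve, or 1.49-fold more once centred (log2 0.58, with a 95% counting interval of 0.40 to 0.76). The region chr16:24862585-24863206 had 228.8 and 325.2 tags (log2 0.58, interval 0.41 to 0.74). Both were called wider in injured nerve, 572 bp against 504 bp and 621 bp against 550 bp, and by density their log2 ratios were each 0.31. The region chr7:116846767-116847725 had 195.2 tags in sham and 277.4 in injured nerve (log2 0.58), with called widths of 619 and 958 bp. Its density was 315 tags per kb in sham and 290 in injured nerve, so its direction turned when width was divided out (log2 -0.14). The region chr15:45574091-45575032 had 243.9 and 343.1 tags (log2 0.56) at nearly equal widths of 941 and 935 bp, and by density the log2 ratio was 0.48. The region chr1:289213674-289214677 had 171.3 and 236.5 tags (log2 0.54), and chr14:82325548-82326486 had 172.2 and 235.6 (log2 0.52). Of the 6 highest regions, 5 were also higher by density.

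The edges of the sharp strong regions lay close together in the lists. The call was wider in sham for 373 members, wider in injured nerve for 214 and equal for 5, with a median difference of -21 bp in injured nerve. Among strong regions of at least 1000 bp the median difference was -38 bp, and 61.8% were wider in sham against 63.0% of the members. Both edges shifted by at most 50 bp between the lists in 278 members (47.0%), and the midpoint did so in 442 (74.7%). The edge with the lower coordinate was within 50 bp in 63.0% of members and the edge with the higher coordinate in 74.0%. At 200 to 400 mean tags, both edges were within 50 bp in 46.6% of sharp regions and in 22.5% of wide ones. The edges set the called widths that chose these regions, so this is a description: the limit of 1000 bp in both lists leaves out regions whose edges moved across it, and of the 347 strong regions that crossed it, 25 (7.20%) had both edges within 50 bp. The standard deviation of the log2 width ratio was 0.20 in the 408 sharp regions and 0.18 in the 1713 wide ones. The fragment length in the file headers was 144 bp for sham and 132 bp for injured nerve, and its part in the called edges was not tested. A change in width went along only weakly with a change in tags, with a Spearman correlation of 0.20 between the log2 ratios of the 592 members.

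**Figure D4:**
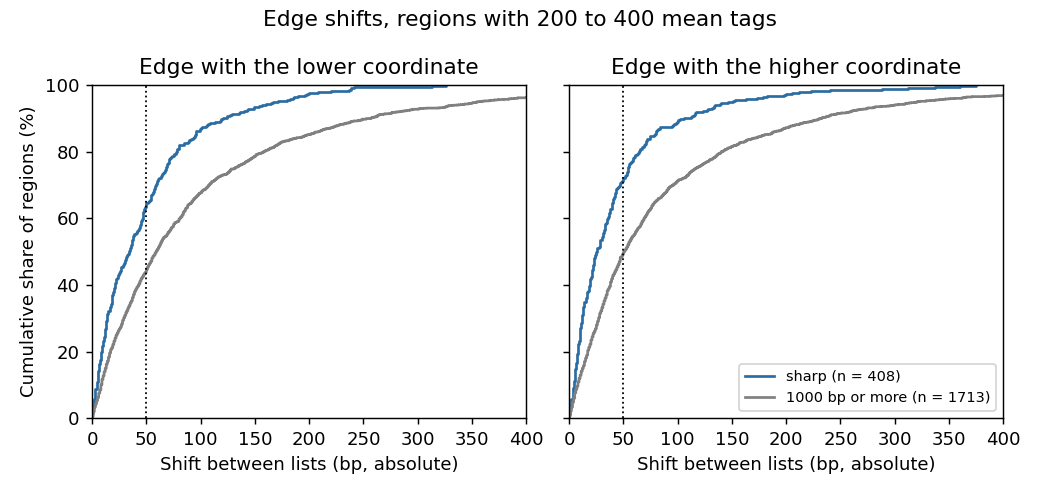
Cumulative share of regions (y, percent) by the absolute shift of each edge between the lists (x, bp), for 408 sharp strong regions (blue) and 1713 regions of at least 1000 bp (grey), both with 200 to 400 mean tags, with 50 bp dotted. The blue curves lie above the grey ones at both edges, and the x axis stops at 400 bp.

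A larger share of sharp strong regions than of wider ones sat beside another strong region, a measure of position that the selection did not use directly. A strong neighbour was taken as a merged region with at least 200 normalized tags in either list. Such a neighbour lay within 1 kb of 127 members (21.5%, 95% exact interval 18.21 to 24.98) and of 316 of the 9052 wider strong regions (3.49%, interval 3.12 to 3.89). With signal held at 200 to 400 mean tags, the shares were 24.0% of 408 sharp regions (interval 20.0 to 28.5) and 5.84% of 1713 wide ones (interval 4.77 to 7.05). Any other region, weak ones included, lay within 5 kb of 303 members (51.2%, interval 47.1 to 55.3) and of 39.0% of the wider strong regions. At like signal that contrast was smaller, 56.4% against 50.3%. The intervals treat regions as independent, although neighbouring members are counted from both sides. The file headers give 370 bp as the minimum distance between peaks, the smallest gap between called edges within a list was 220 bp in both, and gaps after merging the lists can be smaller still. How far a narrow width comes from a split of 1 domain was not tested.

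**Figure D5:**
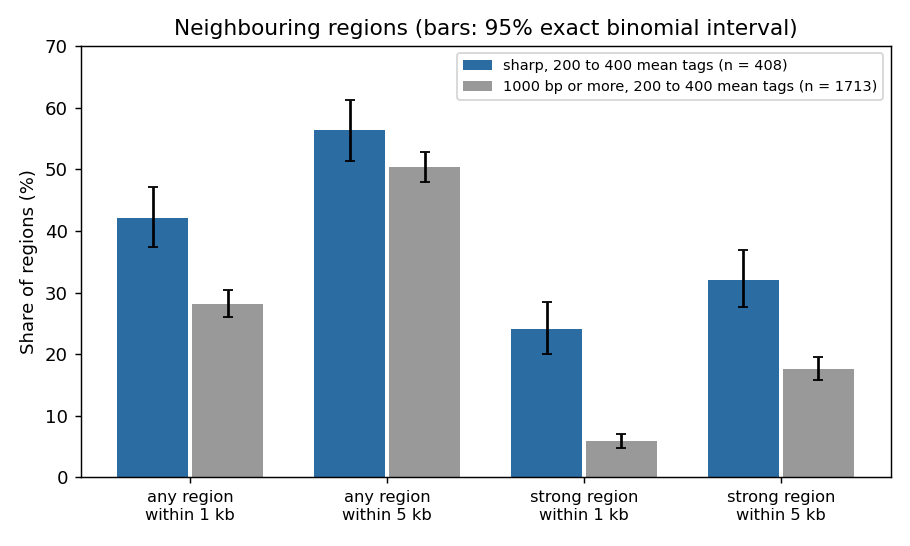
Share of regions (y, percent) with any other region or a strong region (at least 200 tags in either list) within 1 kb or 5 kb, for 408 sharp strong regions (blue) and 1713 regions of at least 1000 bp (grey) with 200 to 400 mean tags, with 95% exact binomial intervals. The widest contrast is for a strong region within 1 kb, 24.0% against 5.84%.

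Of the 127 members with a strong neighbour within 1 kb, 63 had as nearest neighbour a strong region of at least 1000 bp, 41 had another sharp strong region and 23 had a region of another kind. The gap had a median of 327 bp and ran from 171 to 977 bp, and the member and its neighbour together spanned a median of 2373 bp. That span is above the median width of 1828 bp for wider strong regions in sham. Beside a wide neighbour, the sharp region had the lower tag sum of the pair in 50 of 63 cases. Width set these classes apart, and a tag sum can grow with called width. The wide neighbours had median widths of 1496 bp in sham and 1461 bp in injured nerve. Density was not compared within these pairs. Median tags in these 63 cases were 297 in sham and 296 in injured nerve for the sharp region, and 483 and 498 for the wide one. The member and its neighbour lay on the same side of the centred ratio in 62 of 127 cases. Most pairs of members enter this count from both sides. Of all members, 60.0% had a centred ratio above 1, and the agreement to be had without any link was not computed.

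There were 21 pairs of sharp strong regions within 1 kb of each other. The closest pair was chr6:59927620-59928387 and chr6:59928558-59929338, with a gap of 171 bp. The former held 266.0 tags in sham and 300.8 in injured nerve, and the latter 333.7 and 251.1, so the stronger member of the pair differed between the lists. The regions chr14:82325548-82326486 and chr14:82326701-82327367 had 172.2 and 235.6 tags, and 506.3 and 493.7, with a gap of 215 bp. The regions chr5:151302466-151303162 and chr5:151303390-151303958 were nearly even, with 288.6 and 303.2 tags, and 257.6 and 246.4. The dense region chr7:74892126-74892558 was also 1 of a pair, 323 bp from a region with 245.6 and 215.9 tags.

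At the other end, 22 members (3.72%) had no other region of either list within 100 kb. Their median tags were 292 in sham and 323 in injured nerve, their median density was 463 and 508 tags per kb, and their median centred log2 ratio was 0.09. The most isolated was chr8:19945809-19946843, with 597.0 tags in sham and 579.6 in injured nerve and 1511123 bp to the nearest region. It was followed by chr5:116162595-116163539, with 280.1 and 308.8 tags and a gap of 1313171 bp. Members with and without a strong neighbour within 1 kb were alike in ratio, with median centred log2 values of 0.06 in both sets. Their median densities were 420 and 419 tags per kb in sham, and 413 and 424 in injured nerve. Their median widths in sham were 771 and 859 bp.

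Sharp strong regions were found on each of the 21 chromosomes of the lists. They made up 5.53% of strong 1-to-1 regions on chromosome 1, with 70 of 1266. The share was highest on chromosome 14, with 30 of 355 (8.45%, 95% exact interval 5.77 to 11.8), and lowest on X, with 7 of 272 (2.57%, interval 1.04 to 5.23). Chromosome 9 had 30 of 366 (8.20%) and chromosome 20 had 11 of 280 (3.93%). These were picked as the ends of the order after the values were seen, and no difference between chromosomes was tested.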

How the data were processed

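H3K4me3 was measured in 4 samples, 2 sham and 2 transected. Per the file headers, the authors pooled each group and called peaks with HOMER findPeaks, in windows of 150 bp stitched at 370 bp, with a false discovery rate of 0.001 and a threshold of 8 tags. The command names no input library. The submitters' processing notes name CASAVA 1.8.2 and Bowtie. The normalized tag count is a signal the authors scaled to 10000000 tags, per the file headers. Used as deposited were the called length (another unit, bp), the score of findPeaks and the clonal fold, a ratio the authors' caller limited to 2. Peaks overlapping by 1 bp were merged here (Python 3.11.15, pandas 2.3.3, scipy 1.17.1). Ratios of tag sums were centred on the median of regions in both lists (log2 -0.07). Tags before scaling were recovered from the header totals, whole within 0.12 tags in 100% of peaks. Intervals are exact (Clopper-Pearson, 95%) and cover counting error alone, because each group is 1 pooled list. Those of tag ratios also take each tag as a separate molecule, and repeated copies cannot be told from separate molecules without identifiers. The merging and ratio steps were checked on simulated data. No test between groups was possible. The regions and rules were chosen with earlier results of these data known. Named were the extreme-density region, the 10 with most tags, the 6 highest and 6 lowest ratios, the 3 narrowest and the 2 on either side of each limit; the next 3 by density, the pairs, the most isolated regions and the chromosomes at the ends of the order were chosen after their values were seen. Figures were drawn with matplotlib 3.10.9.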

Additional observations from a re-analysis of the deposited data

How the results depend on the processing

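No paired analysis was possible because the samples of each group were pooled before peaks were called, and for the same reason no sample could be left out. The number of sharp strong regions, 592, was 499 with the upper 75% of peaks by score (a score of at least 9) and 591 with an overlap of at least 50% of both peaks, and no count moved by over 1.5 times under either. With a limit of 300 mean tags there were 316 regions, with a median density of 536 tags per kb (419 before), 0 at least 1.5-fold lower (4 before), 146 with another region within 5 kb (303 before) and 25 with a clonal fold over 1.5 (39 before). With a width limit of 800 bp there were 197, with 444 tags per kb, 2 lower, 117 with a region within 5 kb and 16 with a clonal fold over 1.5. These settings take fewer regions by construction. The number at least 1.5-fold lower was 10 without centring, 9 with centring on the members and 12 by density in tags per kb. By density 9 were at least 1.5-fold higher (0 before) and 1 was 2-fold apart (0 before). The cause was not tested. With 1.5 interquartile ranges 4 regions had an extreme density, and with both lists past their own limit 1 had. A clonal fold over 1 was seen in 326. Leaving out the extreme-density region changed no count of ratios. The fewest unscaled tags of any member in either list were 343, and the counting interval of its centred ratio ran from -0.85 to -0.46 on the log2 scale.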
